A study of Mus musculus with 12 samples.

Results

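The genes described here are 10 immediate early and AP-1 genes, followed through muscle differentiation and exposure to the bromodomain ligand PFI-3. They are the FOS family (Fos, Fosb, Fosl1 and Fosl2), the JUN family (Jun, Junb and Jund), Egr1, Ier2 and Myc. They were chosen by symbol from the per-gene tables, and all 10 were found among the 16288 genes listed in at least 1 library. The cells were C2C12, an immortalized mouse myoblast line that fuses into myotubes when growth factors are withdrawn. The 6 groups of 2 libraries (A and B) made 12 libraries in all. Proliferating cells were kept in growth medium with 10% fetal bovine serum (GM). Differentiating cells were kept for 24 h or 48 h in medium with 2% horse serum and 2 ug/ml insulin (DM 24h and DM 48h). Each stage was given the vehicle DMSO or 50 uM PFI-3 from 12 h before harvest or before induction, renewed every 24 h. PFI-3 is a ligand for bromodomains of SMARCA2, SMARCA4 and PBRM1, subunits of SWI/SNF chromatin remodellers. The labels call the samples of a group biological duplicates and do not say how the cultures were separated. P-values therefore measure the spread between duplicates, taken for each gene as 1 estimate shared by all 6 groups.

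Immediate early genes are transcribed within minutes of a growth factor or stress signal, without new protein synthesis, through kinases such as ERK that act on factors already bound at their promoters. FOS and JUN proteins pair through leucine zippers to form AP-1, which binds short palindromic DNA sites. JUN proteins can also pair with each other, whereas FOS proteins need a JUN or another partner. Fosl1 (encoding FRA1) and Fosl2 (FRA2) lack the strong activation domain of Fos. Myc and AP-1 are known for opposing myogenic differentiation when forced on in myoblasts, and the serum present in growth medium is a classic inducer of these genes.

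Levels are given as CPM (reads of a gene relative to the library total after TMM scaling between libraries). Where different genes are compared, the deposited FPKM is used, which also divides by transcript length and was not TMM-scaled here. Library totals ran from 12576374 to 13658352 expected counts. The 10 genes were listed in every library, and all 120 of their counts were whole numbers. All 10 passed the filter on low counts, which kept 12545 genes in total. The GM duplicates differed more than the others. Over genes, log2 ratios between libraries B and A had an SD of 0.333 in GM DMSO and 0.301 in GM PFI-3. In the DM groups the SD was 0.138 to 0.151. The chi-square of the duplicates' counts over its degrees of freedom measures spread beyond counting noise. It was 18.3 in GM DMSO, 13.6 in GM PFI-3 and 1.73 to 2.09 in the DM groups. A spread shared by all groups thus tends to be smaller than that between GM duplicates and larger than that between DM duplicates. Whether the close DM duplicates hold the variation between separate cultures was not tested. All 10 myoblast markers were listed at every stage, while Adipoq, Fabp4, Ptprc and Pecam1 never exceeded 3 counts and Tcf21, Plin1, Lep and Cidec were at 0. Summed myoblast markers were lower with PFI-3 at each stage: 1176 to 1259 against 1763 to 1774 CPM in GM, 2827 to 2880 against 4253 to 4311 in DM 24h, and 5566 to 5703 against 6985 to 7105 in DM 48h. With PFI-3, 6 of the 10 were called lower in GM, 6 in DM 24h and 5 in DM 48h, and 0 higher. Of all genes, 11.6%, 23.6% and 27.4% were called. In DMSO, 8 of the 10 were higher and 1 lower in DM 24h than in GM (60.6% of all genes were called). In DM 48h 8 were higher and 2 lower than in GM (73.1%), so the sum also follows differentiation. Summed macrophage markers stayed between 1.59 and 9.76 CPM and endothelial markers between 0.07 and 5.77 CPM, and adipocyte markers, nearly all Pparg, were at 16.5 to 23.4 CPM in GM. In DM 48h the adipocyte sum was 4.93 to 6.32 CPM with PFI-3 against 3.11 to 3.58 with DMSO, and the endothelial sum 1.64 to 2.42 against 4.58 to 5.77. Pparg was called higher there (log2 0.77, SE 0.24, adjusted p = 0.035), a call lost in 6 of 22 alternatives: DESeq2 and without DM 24h DMSO A, DM 24h DMSO B, DM 48h DMSO A, DM 48h DMSO B or DM 48h PFI-3 B (adjusted p up to 0.217). The part of these markers in the results below was not tested. In bulk RNA, fewer cells of a type and less RNA per cell cannot be told apart.

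During differentiation in DMSO most of the 10 genes fell in the first step and rose in the next, in partly different sets. From GM to DM 24h, Fosl1, Fosb, Myc, Ier2, Junb and Fosl2 fell and Jund rose, so 7 of 10 were called at an adjusted p under 0.05, where 60.6% of all genes tested were called. From DM 24h to DM 48h, Fos, Junb, Egr1, Fosl2, Ier2, Jund and Jun rose and Fosl1 fell, which is 8 of 10 against 48.1% of all genes. Between GM and DM 48h, 9 of 10 were called, 5 higher and 4 lower, against 73.1% of all genes. The median log2 fold change of the 10 genes was -0.72 from GM to DM 24h and 0.54 from DM 24h to DM 48h, where the median over all genes was 0.02 and 0.00.

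With all 12 libraries in 1 fit, PFI-3 moved fewer of them. In GM, Fosl2 and Jund were higher and Junb lower (3 of 10, where 11.6% of all genes were called). In DM 24h, Fosl2 was higher and Ier2 lower (2 of 10, against 23.6%). In DM 48h, Fosl1 was higher and Junb, Ier2 and Jund lower (4 of 10, against 27.4%). In fits of only the libraries compared, the counts were 0 in GM, 6 in DM 24h and 9 in DM 48h. Over all genes, such fits also called fewer in GM and more at both DM times, and those numbers are given in the closing section. The counts from these fits are therefore not to be set against the percentages above. A model with 1 effect of PFI-3 over all stages called Jun, Junb and Ier2, all lower. That is 3 of the 10, where 24.1% of all genes were called. The effects on Junb and Ier2 differed between stages, which this model does not allow for. The count in GM was 1 without library GM DMSO A and 6 without GM DMSO B. In DM 24h it was 0 without DM 24h DMSO A and 1 without any of the other DM 24h libraries, and in DM 48h it was 8 without either GM PFI-3 library.

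**Figure D1:**
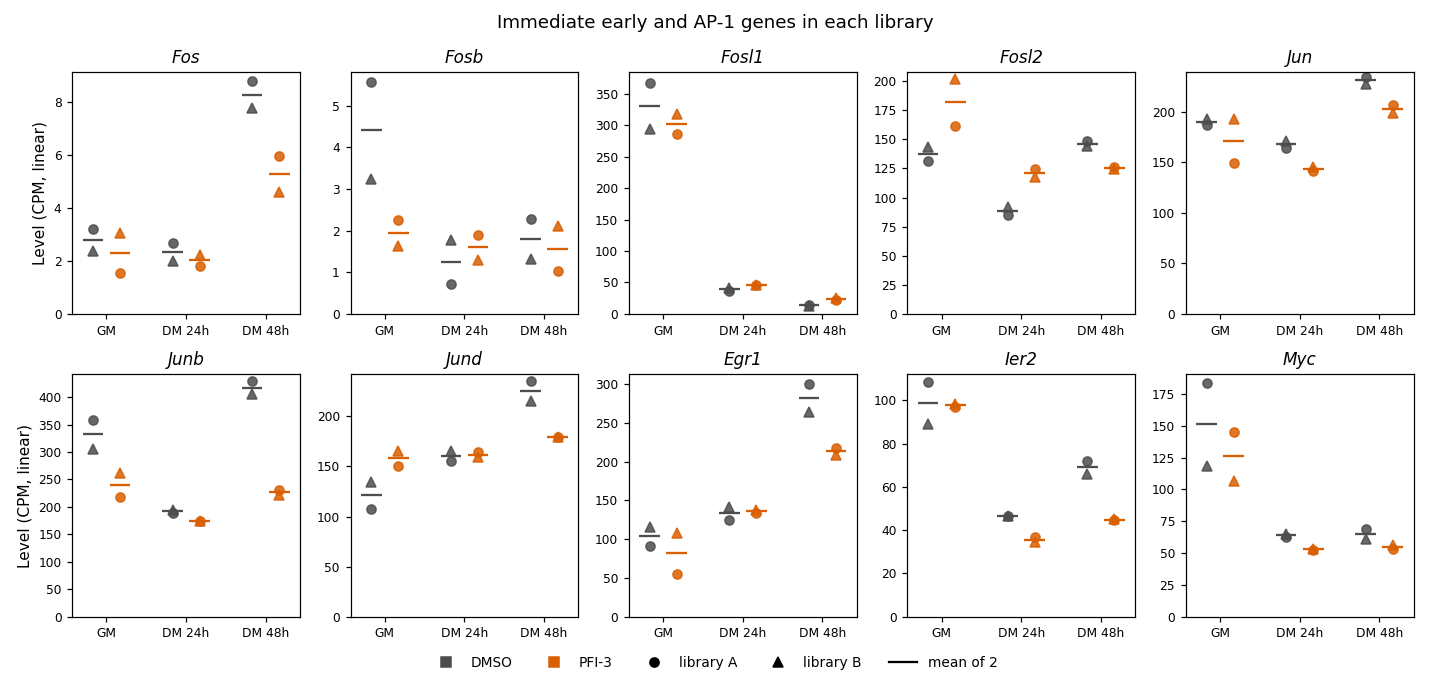
Level of each of the 10 genes (CPM, linear axis from 0) in each library by stage; grey marks DMSO, orange PFI-3, circles library A, triangles library B and the bar the mean of the 2. Fosl1 falls from over 286 CPM in GM to under 26 CPM in DM 48h, whereas Fos, Junb and Egr1 are highest in the DM 48h DMSO libraries.

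The promoters of Fos, Jun and Junb are shown as examples of genes that rose between DM 24h and DM 48h in DMSO. Fosl2 and Jund also rose in that step, and their windows were searched but are not shown. Each line is the 100 bases before the start on the gene's own strand, from RefSeq on GRCm38.p6. The windows are chr12:85473790-85473889 on the plus strand for Fos, chr4:95052223-95052322 on the minus strand for Jun and chr8:84978749-84978848 on the minus strand for Junb. Capitals mark matches to the motifs searched.
Fos: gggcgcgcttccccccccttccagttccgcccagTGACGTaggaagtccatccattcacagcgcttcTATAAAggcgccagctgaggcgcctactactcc
Jun: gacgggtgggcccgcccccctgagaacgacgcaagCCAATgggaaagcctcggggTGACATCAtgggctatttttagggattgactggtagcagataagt
Junb: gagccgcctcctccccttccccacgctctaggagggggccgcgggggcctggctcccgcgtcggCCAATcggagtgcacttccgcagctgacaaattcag

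The Fos window held TGACGT at 66 to 61 bases before the start, which is the core of a cAMP response element, and a TATAAA box at 33 to 28 bases. The Jun window held TGACATCA at 45 to 38 bases, an 8-base variant of the AP-1 site, and CCAAT at 65 to 61 bases. Junb held CCAAT at 36 to 32 bases. The table had entries for 6 of the 10 genes (also Fosb, Fosl2 and Jund), and the motifs were searched on both strands in the 250 bases before the start of 32851 RefSeq windows. TGANNTCA was found in 11.9% of those windows and in 2 of the 6 genes (Jun and Jund), TGACGT in 6.47% and in Fos alone, TATAAA in 12.4% and in Fos alone, and CCAAT in 33.8% and in Jun and Junb. TGANTCA (6.75% of windows), CACGTG (6.02%) and the CArG box (1.47%) had no match in the 6. Sites more than 250 bases before the start, and genes without an entry such as Egr1, were not searched. The TGACGT and TGANNTCA patterns can overlap, and such a site counts under both. These are matches of letters only.

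Fosl1 had the widest range of the 10 genes. It encodes the AP-1 subunit FRA1 and lies on chromosome 19 (5447698 to 5455938, GRCm38.p6). Its DMSO libraries A and B stood at 367 and 294 CPM in GM, at 37.2 and 41.5 in DM 24h, and at 13.8 and 13.2 in DM 48h, so the 3 stages did not overlap. The fall was 8.40-fold by DM 24h (-3.07 as a log2 fold change, SE 0.12, adjusted p = 7.53e-10) and 24.5-fold by DM 48h (-4.61, SE 0.13, adjusted p = 2.07e-11), and the step between DM 24h and DM 48h was -1.54 (SE 0.13, adjusted p = 1.64e-06).

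With PFI-3 the loss of Fosl1 was less deep in DM 48h. The PFI-3 libraries held 21.5 and 25.3 CPM, above both DMSO libraries, a 1.73-fold difference (log2 0.79, SE 0.14, adjusted p = 0.00129) that was called in all 22 alternative analyses. In GM the treated libraries held 286 and 317 CPM, overlapping the controls (adjusted p = 0.43). In DM 24h they held 46.2 and 46.2 CPM, above both controls, but the difference was not called (log2 0.23, SE 0.12, adjusted p = 0.176). A fit of only the DM 24h libraries did call it. The effect in DM 48h exceeded that in GM by 0.92 (SE 0.17, adjusted p = 0.00409). Its excess of 0.56 over the effect in DM 24h was not called (SE 0.18, adjusted p = 0.0695). Some alternatives did call it, such as DESeq2 and limma on both FPKM scales.

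Fosl2, which encodes FRA2 and lies on chromosome 5 (32136472 to 32157840), dipped and recovered. With DMSO it was at 131 and 144 CPM in GM, 84.7 and 91.9 in DM 24h, and 148 and 144 in DM 48h. It fell from GM to DM 24h (log2 -0.64, SE 0.10, adjusted p = 0.000129) and rose again by DM 48h (0.73, SE 0.10, adjusted p = 6.65e-05), and GM and DM 48h were not called different (0.09, SE 0.10, adjusted p = 0.411).

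With PFI-3, Fosl2 rose in GM and in DM 24h, and neither call held in every analysis. In GM it was at 161 and 202 CPM with PFI-3, above both controls (log2 0.40, SE 0.10, adjusted p = 0.0206). That call was lost without GM DMSO A (adjusted p = 0.065), without GM PFI-3 B (0.0876) and in a fit of the 4 GM libraries alone (0.315). In DM 24h it was at 125 and 118 CPM with PFI-3, again above both controls (log2 0.46, SE 0.10, adjusted p = 0.00585), and that call was lost without DM 24h DMSO A (0.0688) or DM 24h PFI-3 A (0.0593). In DM 48h the treated libraries held 127 and 124 CPM, below both controls. The difference was not called (log2 -0.22, SE 0.10, adjusted p = 0.111), except in some alternatives such as a fit of only the DM 48h libraries. The effect of PFI-3 in DM 48h was lower than in GM by 0.62 (SE 0.14, adjusted p = 0.00933) and lower than in DM 24h by 0.68 (SE 0.14, adjusted p = 0.00686). In the PFI-3 libraries Fosl2 thus stood at 118 to 127 CPM at both DM times, where the DMSO libraries stood at 84.7 to 91.9 and then 144 to 148.

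Fos itself, the founding immediate early gene (chromosome 12, 85473890 to 85477274), was low until DM 48h. In DMSO it had 41 and 32 reads in GM, 34 and 26 in DM 24h, and 108 and 95 in DM 48h, or 3.21 and 2.36, 2.70 and 2.01, and 8.78 and 7.77 CPM. Both DM 48h libraries were above all of the earlier ones. The rise was 3.51-fold over DM 24h (log2 1.81, SE 0.29, adjusted p = 0.000293) and 2.97-fold over GM (1.57, SE 0.28, adjusted p = 0.0003). With PFI-3 Fos was at 1.53 and 3.06 CPM in GM, 1.83 and 2.21 in DM 24h, and 5.95 and 4.61 in DM 48h. The DM 48h values lay below both controls, and the difference was not called (log2 -0.65, SE 0.26, adjusted p = 0.0882). It was called in some alternatives, such as a fit of only the DM 48h libraries.

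Fosb (chromosome 7, 19302696 to 19310118) had the lowest FPKM of the 10 genes in each group, with 9 to 71 reads per library. In DMSO it was at 5.57 and 3.25 CPM in GM, 0.71 and 1.78 in DM 24h, and 2.28 and 1.31 in DM 48h. It fell from GM to DM 24h (log2 -1.80, SE 0.46, adjusted p = 0.00504) and stayed lower in DM 48h (-1.29, SE 0.44, adjusted p = 0.019). The first call was lost without DM 24h DMSO A (adjusted p = 0.0591), and the second without GM DMSO A (0.138) or DM 48h DMSO B (0.147). In GM, PFI-3 libraries held 2.26 and 1.64 CPM, below both controls. The difference was not called (log2 -1.17, SE 0.43, adjusted p = 0.0973), except in some alternatives such as the replicate letter as a block within each stage. The 2 groups overlapped at both DM times.

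Set side by side per length, the FOS family changed its main transcript. Its summed FPKM was 235 and 205 in GM DMSO, 39.0 and 42.6 in DM 24h, and 37.3 and 35.5 in DM 48h. Fosl1 made up 89.8% and 87.1% of that sum in GM, 58.7% and 59.6% in DM 24h, and 21.8% and 21.8% in DM 48h. Fosl2 rose from 9.0% and 11.9% of the sum to 37.4% and 37.0%, and then to 65.5% and 67.0%, while Fos reached 11.1% and 10.3% in DM 48h. With PFI-3 in DM 48h, Fosl1 held 34.6% and 39.1% of the sum and Fosl2 57.0% and 53.8%. These shares are descriptions of transcripts and were not tested.

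**Figure D2:**
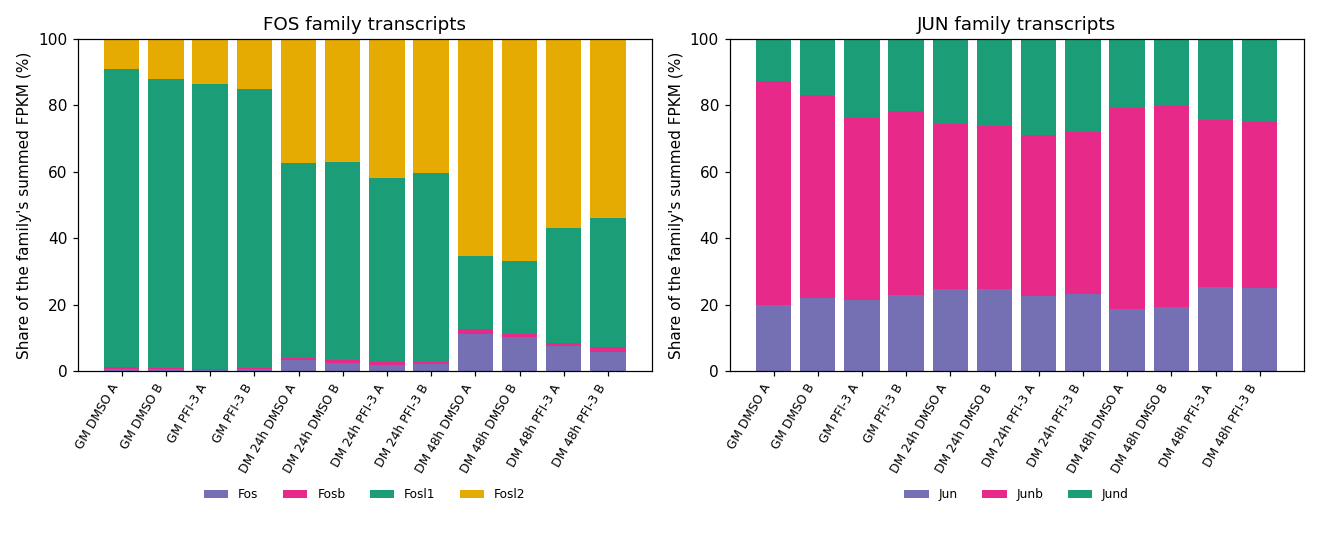
Share of each gene in the summed FPKM of its family (percent, stacked bars, 1 bar per library) for the FOS family (left) and the JUN family (right). Fosl1 fills most of the FOS bars in GM and Fosl2 most of them in DM 48h, and the Junb share in DM 48h is 60.5% and 60.6% with DMSO and 50.3% and 49.7% with PFI-3.

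Junb made up the largest share of JUN family FPKM in every library, and in DM 48h its fall with PFI-3 had the smallest adjusted p of the 10 genes. It encodes a JUN protein that can restrain as well as support AP-1 activity, and lies on chromosome 8 (84976909 to 84978748). Its DMSO libraries stood at 359 and 306 CPM in GM, 188 and 195 in DM 24h, and 429 and 405 in DM 48h. The DM 24h libraries were the lowest and the DM 48h libraries the highest, with no overlap. It fell from GM to DM 24h (log2 -0.79, SE 0.09, adjusted p = 1.73e-05) and rose 2.18-fold from DM 24h to DM 48h (1.12, SE 0.09, adjusted p = 1.28e-06). The excess of DM 48h over GM (0.33, SE 0.09, adjusted p = 0.00691) was not called without DM 48h DMSO A (0.0575).

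With PFI-3, Junb was at 232 and 222 CPM in DM 48h. Both libraries were far below the controls, 1.84-fold lower on average (log2 -0.88, SE 0.09, adjusted p = 3.37e-05), and the call was kept in all 22 alternatives. In GM it was at 218 and 263 CPM, also below both controls (log2 -0.47, SE 0.09, adjusted p = 0.0091). That call was kept with each single library left out. It was lost in a fit of the 4 GM libraries alone, without (adjusted p = 0.298) and with (0.0719) the replicate letter as a block. In DM 24h the treated libraries held 173 and 174 CPM, below both controls. The difference was not called (log2 -0.14, SE 0.09, adjusted p = 0.304), except in fits of only the DM 24h libraries. The effect in DM 48h was lower than in DM 24h by 0.73 (SE 0.13, adjusted p = 0.00371). Against GM the difference of -0.41 was not called (SE 0.13, adjusted p = 0.059), except in some alternatives such as DESeq2 and limma on both FPKM scales.

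Jund, the JUN gene known for its steady expression in resting cells (chromosome 8, 70697739 to 70700616), climbed through differentiation. With DMSO it was at 108 and 135 CPM in GM, 156 and 165 in DM 24h, and 236 and 215 in DM 48h, with no overlap between stages. It was higher in DM 24h than in GM (log2 0.40, SE 0.10, adjusted p = 0.00323) and higher again in DM 48h (0.49 over DM 24h, SE 0.10, adjusted p = 0.00116).

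PFI-3 was followed by higher Jund in GM and lower Jund in DM 48h. In GM the treated libraries held 151 and 166 CPM (log2 0.38, SE 0.10, adjusted p = 0.0257). It was not called without GM DMSO A (0.0953), without GM PFI-3 B (0.0909) or with the 4 GM libraries alone (0.333). In DM 48h they held 179 and 180 CPM (log2 -0.33, SE 0.10, adjusted p = 0.0229). That call was lost without DM 48h DMSO A (0.165), DM 48h PFI-3 A (0.119) or DM 48h PFI-3 B (0.106), and on the FPKM scale (limma, 0.129 and 0.135 with pseudocounts of 1 and 0.1). In DM 24h the 2 treatments overlapped (156 and 165 against 164 and 159 CPM). The difference between the effects in DM 48h and in GM was -0.71 (SE 0.14, adjusted p = 0.00437).

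Jun moved least of the 10 genes, with group means spanning 0.69 on the log2 scale. This gene encodes c-JUN, the strongest activator of the family, and lies on chromosome 4 (95049036 to 95052222). In DMSO it was at 187 and 192 CPM in GM, 164 and 172 in DM 24h, and 235 and 228 in DM 48h. The rise from DM 24h to DM 48h was called (log2 0.46, SE 0.10, adjusted p = 0.00174). The excess in DM 48h over GM (0.29, SE 0.10, adjusted p = 0.0166) was not called without DM 48h DMSO A (0.0845). With PFI-3 it was at 149 and 192 CPM in GM, 141 and 145 in DM 24h, and 207 and 198 in DM 48h. The treated libraries lay below both controls at each DM time without being called there (log2 -0.23, adjusted p = 0.106, and -0.19, adjusted p = 0.163). Both differences were called in fits of only the libraries compared. Over all stages together Jun was lower with PFI-3 (log2 -0.19, SE 0.06, adjusted p = 0.0319). That call was lost in 10 of 20 alternatives: without any 1 of the 8 DM libraries (adjusted p of 0.052 to 0.0766) and in both FPKM analyses (0.16 and 0.162).

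As a family, the JUN genes summed to 283 and 280 FPKM in GM DMSO, 215 and 223 in DM 24h, and 385 and 362 in DM 48h. With PFI-3 in DM 48h the sum was 265 and 258 FPKM. In DMSO library A the JUN and FOS sums stood at 283 and 235 FPKM in GM and at 385 and 37.3 FPKM in DM 48h.

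Egr1, a zinc-finger factor induced through SRF and ERK, was highest in DM 48h. Its DMSO libraries stood at 91.2 and 116 CPM in GM, 125 and 141 in DM 24h, and 300 and 264 in DM 48h. Both DM 48h libraries were above all of the others. The rise was 2.12-fold over DM 24h (log2 1.08, SE 0.21, adjusted p = 0.00126) and 2.72-fold over GM (1.44, SE 0.22, adjusted p = 6.38e-05). DM 24h and GM were not called different (0.36, SE 0.22, adjusted p = 0.165). With PFI-3 it was at 55.5 and 107 CPM in GM, 134 and 138 in DM 24h, and 218 and 209 in DM 48h. In DM 48h the treated libraries were below both controls, and the difference was not called (log2 -0.40, SE 0.21, adjusted p = 0.182). It was called in some alternatives, such as a fit of only the DM 48h libraries.

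Ier2 is a short gene of the serum response that encodes a nuclear protein (chromosome 8, 84661331 to 84662852). It was at 108 and 89.3 CPM in GM DMSO, 46.5 and 46.4 in DM 24h, and 72.0 and 66.1 in DM 48h. It fell 2.13-fold by DM 24h (log2 -1.09, SE 0.09, adjusted p = 8.84e-07) and rose by 0.57 by DM 48h (SE 0.09, adjusted p = 0.000295), to a level still below GM (-0.52, SE 0.09, adjusted p = 0.000201).

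PFI-3 lowered Ier2 at both DM times. In GM the treated libraries held 97.1 and 98.3 CPM, between the controls (adjusted p = 0.937). In DM 24h they held 36.6 and 34.3 CPM, below both controls (log2 -0.39, SE 0.10, adjusted p = 0.0122), a call lost without DM 24h DMSO A (0.0682), DM 24h DMSO B (0.0727) or DM 24h PFI-3 B (0.0971). In DM 48h they held 44.65 and 44.97 CPM, 1.54-fold below the controls (log2 -0.62, SE 0.09, adjusted p = 0.000378), a call kept in all 22 alternatives. The effect in DM 48h was lower than in GM by 0.61 (SE 0.13, adjusted p = 0.00752). In DM 24h the difference from GM was -0.37 and was not called (SE 0.13, adjusted p = 0.143).

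Myc, the growth regulator on chromosome 15 (61985341 to 61990361), fell once and did not return. With DMSO it was at 184 and 118 CPM in GM, 62.6 and 64.9 in DM 24h, and 68.6 and 61.3 in DM 48h. GM and DM libraries did not overlap, and the GM pair differed most. The fall was 2.37-fold by DM 24h (log2 -1.24, SE 0.18, adjusted p = 7.85e-05) and 2.32-fold by DM 48h (-1.22, SE 0.18, adjusted p = 5.32e-05). Between the DM times it was not called (0.03, SE 0.18, adjusted p = 0.922). With PFI-3 it was at 145 and 107 CPM in GM, 52.4 and 53.5 in DM 24h, and 53.0 and 56.1 in DM 48h. The treated libraries lay below both controls at each DM time. The log2 differences of -0.27 (SE 0.18, adjusted p = 0.323) and -0.25 (SE 0.18, adjusted p = 0.35) were not called. Both were called in some alternatives, such as fits of only the libraries compared.

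**Figure D3:**
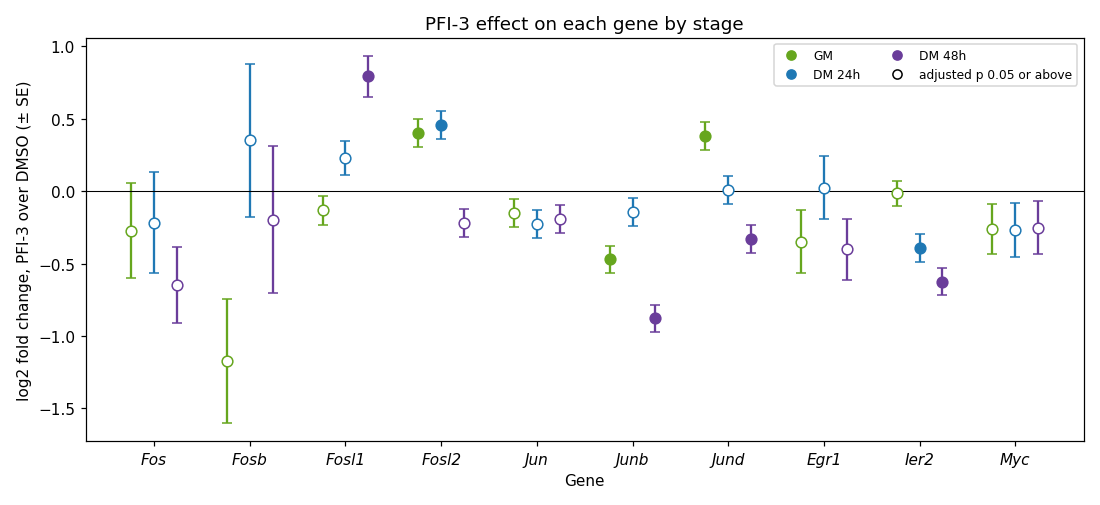
Effect of PFI-3 on each gene at each stage (log2 fold change over DMSO, 2 libraries against 2, with bars of 1 SE); filled points have an adjusted p under 0.05 in edgeR's quasi-likelihood test. Junb at -0.88, Ier2 at -0.62 and Fosl1 at 0.79 are the outermost filled points, all in DM 48h, and the wide bars of Fosb and Fos go with their low counts.

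Whether the effect of PFI-3 changed with the stage was tested directly. Later stages also had a longer exposure, 12 h in GM and 12 h plus 24 h or 48 h in DM. Stage and length of exposure therefore cannot be told apart in these contrasts. Between DM 24h and GM, 0 of the 10 genes were called in edgeR, where 3.37% of all genes were; 5 had an unadjusted p under 0.05, DESeq2 called 0, and limma on FPKM called 1 (pseudocount 1) and 0 (pseudocount 0.1). Between DM 48h and GM, 4 were called (Fosl1 higher; Fosl2, Jund and Ier2 lower), against 14.5% of all genes. Between DM 48h and DM 24h, 2 were called (Fosl2 and Junb, both lower), against 12.1%. These contrasts share the control libraries of the stage comparisons above. The first count was 1 without GM DMSO A, 3 without GM DMSO B and 2 without GM PFI-3 B, and the third was 4 without either GM DMSO library.

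By FPKM, the order of the 10 genes in DMSO changed between stages. In GM, Fosl1 (195 ± 23, SD, n = 2) and Junb (181 ± 14) led with overlapping libraries. Ier2, Myc and Jun followed at 64.9, 62.4 and 58.8, where neighbours overlapped, then Jund and Egr1 (41.6 and 33.4, overlapping), Fosl2 (22.8), Fos (1.32) and Fosb (1.14), the last 2 overlapping. In DM 48h the order was Junb (226 ± 9.5), Egr1 (90.0 ± 8.3), Jund (76.5), Jun (71.1), Ier2 (45.1), Myc (26.8), Fosl2 (24.1), Fosl1 (7.93), Fos (3.9) and Fosb (0.465), with no overlap between neighbours. At this stage PFI-3 left the order as Junb, Egr1, Jun, Jund, Ier2, Myc, Fosl2, Fosl1, Fos and Fosb, with overlap between Jun and Jund.

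For the 4 genes with the widest range over groups, the genes of most similar profile over the 12 libraries were sought among those with a mean of at least 5 CPM, by Pearson's r of log2 CPM. Fosl1 was most like Igsf11 (r = 0.998), Epha2 (0.997) and Hmga1b (0.997, a near copy of Hmga1 whose reads may be shared). Egr1 was most like Hadhb (0.982), Npepps (0.970) and Cavin4 (0.969). Fos was most like Ube2g2 (0.954), Dmwd (0.954) and Padi2 (0.951), and Fosb was most like Sssca1 (0.854), Slc52a2 (0.836) and Zfp334 (0.833). Among the 10 genes, Ier2 and Myc (0.904), Fos and Jun (0.899) and Fosl1 and Myc (0.870) were most alike, and Fosl1 and Egr1 most opposed (-0.869). The libraries share stage and treatment, so these values are descriptions.

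Other immediate early regulators were examined as a list of 18 Egr, Klf, Nr4a and related genes, of which 17 were tested. In DMSO, 5 rose and 8 fell from GM to DM 24h (60.6% of all genes were called), and 8 rose and 4 fell from GM to DM 48h (73.1%). With PFI-3, 3 were higher and 3 lower in GM (11.6% of all genes were called), 5 and 5 in DM 24h (23.6%), and 3 and 10 in DM 48h (27.4%), where the list's median log2 fold change was -0.39 against 0.00 for all genes. Egr3, a close relative of Egr1, fell with PFI-3 in DM 24h from 29.3 to 8.15 CPM (log2 -1.85, SE 0.17, adjusted p = 1.25e-05). Bhlhe40, a clock-linked repressor, fell in DM 48h from 177 to 79.4 CPM (log2 -1.15, SE 0.08, adjusted p = 2.24e-06). Nr4a2, an orphan nuclear receptor, went the other way, from 69.5 to 159 CPM in GM (log2 1.19, SE 0.14, adjusted p = 0.000289) and from 5.34 to 11.8 CPM in DM 48h (log2 1.14, SE 0.22, adjusted p = 0.00244). Klf2 rose in DM 24h (log2 1.09, SE 0.19, adjusted p = 0.00146). The lower count in DM 48h was 6 without DM 48h PFI-3 A. The higher count in DM 24h was 2 without DM 24h DMSO A or PFI-3 B and 3 without DM 24h DMSO B or PFI-3 A, and that in GM was 5 without GM PFI-3 A.

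Among 28 further immediate early genes, 19 fell and 4 rose in DMSO from GM to DM 24h, where 60.6% of all genes were called, with a median of -0.85. PFI-3 raised 2 and lowered 3 in GM, raised 3 and lowered 7 in DM 24h, and raised 1 and lowered 10 in DM 48h (median -0.22). That is 5, 10 and 11 of 28 called, where 11.6%, 23.6% and 27.4% of all genes were. Maff, a small MAF protein, fell in DM 48h from 14.3 to 6.18 CPM (log2 -1.21, SE 0.14, adjusted p = 4.53e-05). Lif, a cytokine that supports myoblast growth, fell from 9.01 to 4.18 CPM (log2 -1.11, SE 0.19, adjusted p = 0.001). Ier3, a survival factor, rose in DM 24h from 8.29 to 20.8 CPM (log2 1.33, SE 0.20, adjusted p = 0.00057), and Gadd45b, a stress-response gene, fell (log2 -0.68, SE 0.13, adjusted p = 0.0024). The lower count in DM 48h was 6 without DM 48h DMSO A and 5 without DM 48h PFI-3 A, and the higher count was 3 without either GM PFI-3 library, 2 without either GM DMSO library and 0 without DM 48h DMSO A, DM 48h PFI-3 A or DM 48h PFI-3 B. In DM 24h the lower count was 2 without DM 24h PFI-3 A or DM 24h DMSO B and 3 without DM 24h PFI-3 B. There the higher count was 1 without DM 24h PFI-3 A or DM 24h DMSO B and 5 without either GM DMSO library. In GM there were 6 higher without GM DMSO A and 1 without GM DMSO B, and 7 lower without GM DMSO B and 5 without GM PFI-3 B.

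Of the other AP-1 partners, 16 of 20 ATF, MAF, BATF and JDP genes were tested, and with PFI-3 2 were higher in GM, 2 higher and 4 lower in DM 24h, and 1 higher and 4 lower in DM 48h. These 2, 6 and 5 of 16 stand beside 11.6%, 23.6% and 27.4% of all genes. Atf5, a stress-linked bZIP factor, was higher in GM (202 against 110 CPM, log2 0.87, SE 0.15, adjusted p = 0.00476) and lower in DM 24h (log2 -0.88, SE 0.17, adjusted p = 0.00281) and in DM 48h (log2 -1.26, SE 0.17, adjusted p = 0.000176). The difference of its effect between DM 48h and GM was -2.13 (SE 0.23, adjusted p = 0.000109). Its call in GM was lost in a fit of the 4 GM libraries alone (adjusted p = 0.21). Mafa, a large MAF protein, fell in DM 48h (log2 -1.26, SE 0.17, adjusted p = 0.000216). The count higher was 4 in GM without either GM PFI-3 library, 1 in DM 24h without any 1 DM 24h library, and 2 in DM 48h without any 1 GM library.

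The kinases that act upstream of these genes come next. Of 22 ERK and JNK pathway genes tested, PFI-3 raised 1 and lowered 1 in GM, raised 2 and lowered 3 in DM 24h, and lowered 3 in DM 48h, and list medians lay between -0.05 and 0.06. The 2, 5 and 3 of 22 called stand beside 11.6%, 23.6% and 27.4% of all genes. The largest change in DM 48h, Rps6ka1 (log2 -0.72, SE 0.19, adjusted p = 0.0132), was lost without DM 48h DMSO A, DM 48h DMSO B or DM 48h PFI-3 B (adjusted p up to 0.119). In DM 24h none of the 5 was called without any 1 of the DM 24h libraries, and in DM 48h 0 or 1 were called without those 3 libraries. The 1 higher and 1 lower in GM were both lost without any 1 of the 8 DM libraries, and 3 were higher without GM DMSO B. SRF binds the CArG box together with ternary complex factors such as Elk4, which contact an ETS site beside it. Of 6 such genes and cofactors tested, PFI-3 moved 0 in GM, 0 in DM 24h and 1 in DM 48h. These stand beside 11.6%, 23.6% and 27.4% of all genes. The 1 was Elk4, which fell (log2 -0.55, SE 0.09, adjusted p = 0.000581).

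The feedback inhibitors of ERK, dual-specificity phosphatases and Sprouty proteins, were mostly lower in DM than in GM. In DMSO, 11 of 17 were lower and 2 higher in DM 24h (median -0.96; 60.6% of all genes were called), and 8 lower and 2 higher in DM 48h (73.1%). PFI-3 lowered 1 in GM (11.6% of all genes were called), raised 1 and lowered 3 in DM 24h (23.6%), and lowered 4 in DM 48h (27.4%). Dusp1, itself an immediate early gene, rose with PFI-3 in DM 24h from 10.8 to 23.0 CPM (log2 1.10, SE 0.19, adjusted p = 0.00159), and Dusp14 fell in DM 48h (log2 -0.65, SE 0.14, adjusted p = 0.00494). The count of 4 lower in DM 48h was 1 without any 1 of the DM 48h libraries. The count of 3 lower in DM 24h was 0 without DM 24h DMSO A or DM 24h PFI-3 A and 1 without either of the other 2, and the count of 1 in GM was 3 without GM PFI-3 B and 2 without GM DMSO B.

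Most known AP-1 target genes fell during differentiation in DMSO. Of 22 tested from a list of 25, 17 were lower and 1 higher in DM 24h than in GM (median -1.34; 60.6% of all genes were called), and 19 were lower in DM 48h (median -1.61, against 0.03 for all genes; 73.1% called). PFI-3 raised 3 and lowered 3 in GM, where 5.46% of all genes were called higher and 6.15% lower. It raised 8 and lowered 1 in DM 24h (12.2% and 11.4% of all genes), and raised 11 and lowered 1 in DM 48h (13.4% and 14.0%; list median 0.39). Mmp9, a gelatinase, was at 9.03 CPM with PFI-3 and 1.45 CPM without in DM 24h (log2 2.63, SE 0.28, adjusted p = 4.26e-05). Ccl2, a chemokine, was at 14.9 and 3.47 CPM in DM 48h (log2 2.10, SE 0.14, adjusted p = 1.4e-06). Nqo1, a quinone reductase also driven by NRF2, was higher in GM (log2 1.70, SE 0.14, adjusted p = 3.14e-05), in DM 24h (2.45, SE 0.16, adjusted p = 1.11e-06) and in DM 48h (2.88, SE 0.20, adjusted p = 1.45e-06). Mt2, a metallothionein also driven by metals, was higher in DM 24h (2.27, SE 0.20, adjusted p = 1.09e-05). In the other direction, Cd44 (log2 -0.49, SE 0.10, adjusted p = 0.0115) and Plau (-0.61, SE 0.18, adjusted p = 0.0441) were lower in GM. Both of these calls were lost in fits of only the GM libraries, and that of Plau also with limma on both FPKM scales. The count higher in DM 48h lay between 8 and 13 with 1 library left out. The 1 lower in DM 24h was 3 without either GM DMSO library, 2 without either GM PFI-3 library and 0 without any 1 DM library. The 1 lower in DM 48h was 0 without DM 48h DMSO A or DM 48h PFI-3 B, and the 3 lower in GM were 6 without GM DMSO B.

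Of 6 fibroblast and mesenchymal markers, up to 5 were listed and 3 tested, and Pdgfra alone was called with PFI-3, in both DM stages. Their sum was 101 and 101 CPM with PFI-3 against 58.0 and 60.7 with DMSO in DM 24h, and 98.2 and 98.6 against 55.0 and 57.3 in DM 48h. In GM it was 18.7 to 43.8 CPM with PFI-3 and 14.2 to 45.9 with DMSO. Pdgfra rose in DM 24h (log2 1.14, SE 0.21, adjusted p = 0.00224) and in DM 48h (1.07, SE 0.21, adjusted p = 0.00263), while Ly6a was not called (0.84, adjusted p = 0.227, and 0.86, adjusted p = 0.216), nor was Dcn (0.06, adjusted p = 0.895, and 0.46, adjusted p = 0.2). Tcf21 was at 0 and Lum and Thy1 had at most 4 and 2 counts. Their part in the AP-1 target counts was not tested.

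Most MYC target genes on the list, chiefly of ribosome assembly and metabolism, fell at each step in DMSO. In DM 24h 31 of 32 were lower than in GM (median -1.12; 60.6% of all genes were called), and in DM 48h 30 were lower and 2 higher (median -1.55; 73.1%). From DM 24h to DM 48h, where Myc itself was not called (0.03, adjusted p = 0.922), 23 fell and 2 rose (median -0.47; 48.1%). PFI-3 raised 1 and lowered 7 in GM, raised 2 and lowered 12 in DM 24h, and raised 4 and lowered 1 in DM 48h. That is 8, 14 and 5 of 32 called, where 11.6%, 23.6% and 27.4% of all genes were. Single libraries moved these counts. In DM 24h, the lower count was 21 without either GM DMSO library and 1 or 2 without any 1 DM 24h library. In GM it was 27 without GM DMSO B, 12 without GM PFI-3 A, 3 without GM DMSO A or GM PFI-3 B, and 4 without DM 24h DMSO A, DM 24h DMSO B, DM 48h PFI-3 A or DM 48h PFI-3 B. In DM 48h, the higher count was 8 without either GM DMSO library and 2 without DM 48h DMSO A, DM 48h DMSO B or DM 48h PFI-3 A. Ccnd2, encoding cyclin D2, rose with PFI-3 in DM 24h from 12.2 to 38.9 CPM (log2 1.67, SE 0.15, adjusted p = 1.29e-05) and in DM 48h from 7.34 to 35.2 CPM (log2 2.26, SE 0.16, adjusted p = 2.13e-06). Ldha, encoding lactate dehydrogenase, fell in DM 48h (log2 -0.50, SE 0.07, adjusted p = 0.000365).

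The partners and antagonists of MYC did not share 1 direction. Of 14 tested, PFI-3 lowered 2 in GM, raised 4 and lowered 1 in DM 24h, and raised 2 and lowered 4 in DM 48h. The 2, 5 and 6 of 14 called stand beside 11.6%, 23.6% and 27.4% of all genes. Mxd3, which competes with MYC for MAX, rose in DM 48h from 15.5 to 31.1 CPM (log2 1.00, SE 0.12, adjusted p = 7.6e-05). Aurka, a mitotic kinase that stabilizes MYC family proteins, rose from 19.9 to 44.5 CPM (log2 1.16, SE 0.11, adjusted p = 1.7e-05), and Pim1, a kinase that acts with MYC, fell (log2 -0.80, SE 0.15, adjusted p = 0.00211). Mxi1, another MAX partner, rose in DM 24h (log2 0.64, SE 0.09, adjusted p = 0.00041). The count of 4 higher in DM 24h was 1 without DM 24h DMSO A, DM 24h DMSO B or DM 24h PFI-3 A and 2 without DM 24h PFI-3 B. The 1 lower there was 0 without any 1 DM library. The 2 lower in GM were 3 without GM PFI-3 B and 1 without GM DMSO A or any 1 DM library.

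**Figure D4:**
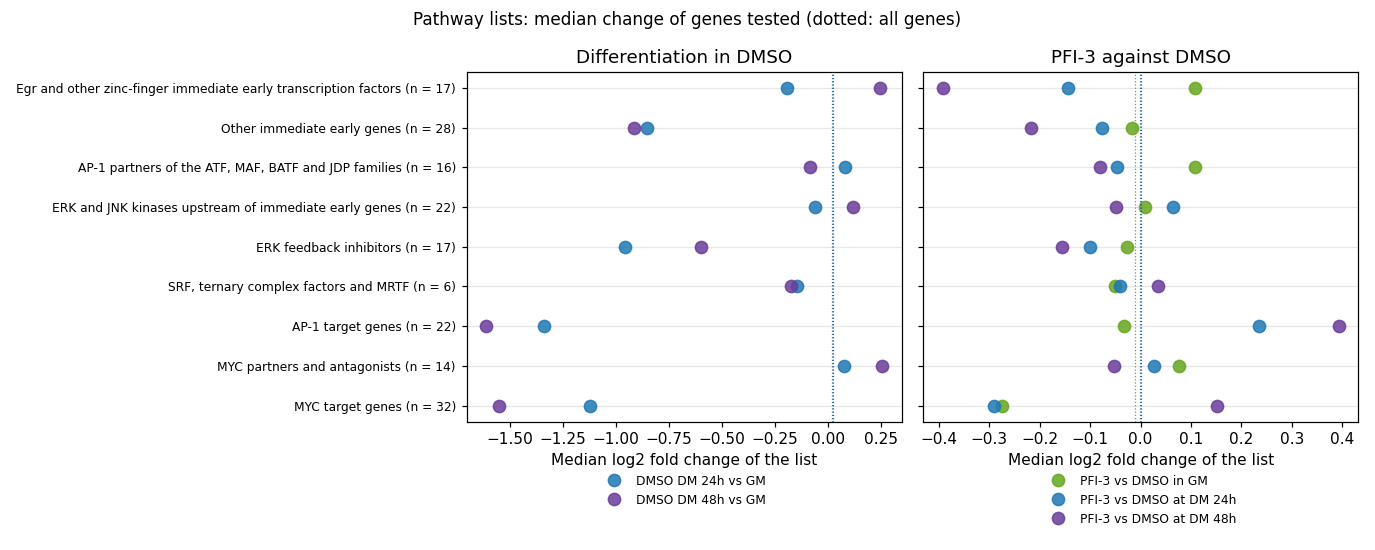
Median log2 fold change of the tested genes of each list (n after the name) during differentiation in DMSO (left) and for PFI-3 over DMSO at each stage (right), with dotted lines at the medians over all genes. The AP-1 and MYC target lists lie lowest on the left, at -1.34 and -1.12 for DM 24h and -1.61 and -1.55 for DM 48h; on the right the AP-1 targets reach 0.39 in DM 48h and the Egr, Klf and Nr4a list -0.39.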

How the data were processed

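RNA from C2C12 cells was sequenced in 12 libraries, 2 in each of 6 groups. The authors deposited 1 gene table per library with an expected count (an estimated number of reads per gene) and an FPKM value, per the file headers. Library preparation, sequencing and data processing were done by the sequencing provider, per the labels' protocols. The submitters' processing notes name the mm10 build and the tools HISAT, StringTie, Cufflinks, Bowtie, RSEM and DESeq2, without role or version; the annotation release is not given in the sources used here. A gene missing from a table was taken as 0.

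The main test was edgeR 4.0.16 in R 4.3.3 on the expected counts, after rounding: TMM scaling, filterByExpr by group, and glmQLFit with glmQLFTest over all 12 libraries and 6 groups, which leaves 6 residual degrees of freedom. P-values were adjusted by Benjamini-Hochberg over the 12545 genes kept. Genes with an adjusted p under 0.05 are those called. The effect over all stages came from a separate edgeR fit of stage and treatment, which assumes the same effect at each stage. Every adjusted p is from these tests unless another tool is named. SE is the log2 fold change divided by the root of F. Totals of 12576374 to 13658352 limit precision for low genes such as Fos and Fosb. The script was tested on simulated data with known changes.

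Alternatives were DESeq2 1.42.0 and its size factors, no filter, a mean of at least 10 counts, limma 3.58.1 on log2(FPKM + 1) and log2(FPKM + 0.1), only the libraries compared, the replicate letter as a block, and leaving out each library. The 10 genes and the gene lists were chosen with earlier results of these data known. Named list genes came from the 3 with the largest change per list and PFI-3 comparison among called genes with at least 5 CPM in either group. Of these, the text names mostly genes that kept their call in every alternative, a choice made after their values were seen; Pdgfra and the other cell type markers come from marker lists. Promoters are from RefSeq on GRCm38.p6. Plots were drawn with matplotlib 3.10.9.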

Additional observations from a re-analysis of the deposited data

Results flagged for a closer look

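By the test of the difference itself, the effect of PFI-3 differed between DM 48h and GM for 4 of the 10 genes (14.5% of all genes were called). Between DM 48h and DM 24h it differed for 2 (12.1%), and between DM 24h and GM for 0 (3.37%). Fosl1 had a higher effect in DM 48h than in GM, by 0.92 on the log2 scale. Fosl2 had a lower effect in DM 48h than in GM (-0.62) and than in DM 24h (-0.68). Jund and Ier2 had lower effects in DM 48h than in GM, by -0.71 and -0.61. Junb had a lower effect in DM 48h than in DM 24h, by -0.73. These 6 calls were kept in each of the 22 alternatives. The GM duplicates differed more than those of the DM groups, and the part of that spread in the contrasts with GM was not tested. Exposure to PFI-3 was longer at later stages, so stage and length of exposure cannot be told apart.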

How the results depend on the processing

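Of the alternative values for single genes, 2002 kept their direction and side of the threshold, 86 gained a call, 33 lost one and 59 changed sign, none of these last called. The count of the 10 genes called for PFI-3 was 3 in GM, 2 in DM 24h and 4 in DM 48h. With only the libraries compared it was 0, 6 and 9. With only those libraries and a replicate block it was 3, 6 and 9 (in GM, Junb was lost, adjusted p = 0.0719, and Fosb gained, 0.0484), and with a replicate block within each stage it was 6, 4 and 8. With 1 library left out it ran from 1 to 6 in GM, 0 to 3 in DM 24h and 3 to 8 in DM 48h. For the effect in DM 24h minus GM the count of 0 became 1 with limma on log2(FPKM + 1), 1 with a replicate block within each stage, and 0 to 3 with 1 library left out. For the effect in DM 48h minus DM 24h the count of 2 became 5 with only the libraries compared, with or without the replicate block, 4 with the block within each stage, and 2 to 4 with 1 library left out. The cause was not tested.

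The letters A and B are not stated to mark a shared culture: the deviations of libraries with 1 letter had a correlation of 0.504 (GM), 0.029 (DM 24h) and 0.047 (DM 48h), and at -0.007 to -0.044 across stages. With 1 replicate block over all stages the counts stayed at 3, 2 and 4. Over all genes, calls in GM numbered 1456, against 32 with only the GM libraries, 741 with those and the block, 2774 with the block within each stage and 2734 without GM DMSO B. In DM 24h they numbered 2966, against 5583 and 5719 with only those libraries, without and with the block, and 1320 to 1469 without 1 of them. In DM 48h they numbered 3438, against 5688 and 6034, and 1937 to 2073. For the differences between effects, calls numbered 423 (DM 24h minus GM; 79 to 1225 over the alternatives), 1824 (DM 48h minus GM; 1010 to 2980) and 1517 (DM 48h minus DM 24h; 790 to 4336). Limma on log2(FPKM + 1) called 1057 genes higher and 347 lower in GM, where edgeR called 685 and 771, 1863 and 1143 in DM 24h (1533 and 1433), and 2554 and 1356 in DM 48h (1682 and 1756).

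Changes of sign were as follows, in log2. Ier2 in GM was 0.0884 and 0.0896 with limma (pseudocounts 1 and 0.1), 0.0031 with only the libraries compared and 0.0084 with those and the replicate block. In DM 24h, Jund was -0.0193 and Egr1 -0.0044 with DESeq2 and with its size factors. Myc from DM 24h to DM 48h in DMSO was -0.0367 and -0.038 with limma. For the effect in DM 48h minus GM, Egr1 was 0.0013 with limma (0.1), and Myc was -0.0138 and -0.0172 with limma, -0.0167 with only the libraries compared, -0.0293 with those and the replicate block, and -0.003 with the block within each stage. Leaving out 1 library also changed signs. For PFI-3 in GM the range was Fos -0.8583 to 0.1407, Fosl1 -0.2808 to 0.0366, Jun -0.3439 to 0.0213, Egr1 -0.9004 to 0.0509, Ier2 -0.1468 to 0.1298 and Myc -0.5418 to 0.0896. For PFI-3 in DM 24h the range was Fos -0.411 to 0.0044, Fosb -0.1537 to 1.158, Jund -0.032 to 0.0575 and Egr1 -0.0607 to 0.1204. For PFI-3 in DM 48h the range was Fosb -0.8102 to 0.2533. For DM 48h over DM 24h in DMSO the range was Myc -0.0552 to 0.1111. For the PFI-3 effect in DM 24h minus GM the range was Fos -0.3596 to 0.6396, Fosl2 -0.0981 to 0.2261, Jun -0.2508 to 0.1147, Egr1 -0.0261 to 0.9255 and Myc -0.3539 to 0.2729. For the effect in DM 48h minus GM the range was Fos -0.788 to 0.2112, Jun -0.2109 to 0.1546, Egr1 -0.452 to 0.4996 and Myc -0.343 to 0.2916. For the effect in DM 48h minus DM 24h the range was Myc -0.0699 to 0.096. For PFI-3 over all stages the range was Jund -0.0643 to 0.078. A left-out library leaves 1 sample in its group, assumed to vary like the others. With 9 to 108 reads per library, depth limits Fos and Fosb.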
